A study of Mus musculus with 32 samples.

Results

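The untreated tumours of a carbon-ion and a photon radiotherapy experiment were compared with each other, to describe how KPC36 tumours that received no radiation varied between and within the experiments. The members were the 16 untreated libraries of 32 in the series, 8 labelled carbon_ctrl and 8 labelled photon_ctrl, and the genes compared were the 19561 autosomal genes with enough counts for a test. KPC36 is a mouse line named for KPC, a mouse model of pancreatic cancer, although the labels do not give its genotype, and every group shared this line, its tumour tissue label and the cell type label Malignant. The other 16 libraries came from tumours labelled carbon_treated and photon_treated. Tumours were collected at 4 and 7 days after treatment, with untreated tumours taken at the same times, but the day of a given library, the host strain, the age and sex of the animals and the site of the graft were not in the labels used here. The carbon_ctrl libraries have titles starting with D (replicates 1 to 4) or M (replicates 5 to 8), and all photon_ctrl titles start with M. The meaning of the letters is not stated. The arm therefore cannot be told apart from whatever else differed between the experiments, and the label does not say that libraries came from separate animals, so p-values measure the spread between these samples. The groups are called the carbon-arm and the photon-arm controls below.

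A grafted pancreatic tumour holds carcinoma cells in a stroma of fibroblasts, blood vessels and immune cells, and bulk RNA mixes all of them with any host tissue cut along with the tumour. Carcinoma cells of this kind range from an epithelial state, with cell junctions, keratins and gastric-type secretory genes, to a mesenchymal state in which these are replaced by genes of motility. Fibroblasts build the collagen-rich matrix for which pancreatic cancer is known. In bulk samples a lower level of a marker can mean fewer cells of that type or less RNA per cell, and these cannot be told apart.

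The summed estimated counts of a library lay between 25983694 and 44819131 in the carbon-arm controls and ran from 17954086 to 51288223 in the photon-arm controls. Across the 19561 tested autosomal genes, pairs of libraries correlated at 0.959 to 0.982 within the carbon-arm controls and at 0.962 to 0.985 within the photon-arm controls. Between the groups they correlated at 0.946 to 0.979. Every pair differed beyond counting error, the smallest chi-square per gene being 18.5. The cell type label gives no lineage to check beyond malignant cells; Krt8, a keratin of simple epithelia, was at 904 to 1719 CPM (the count relative to the scaled library total) in the carbon-arm and 690 to 1414 CPM in the photon-arm controls. Pancreatic acinar and islet genes were almost absent, with 5 of 16 listed genes at 0 in every untreated library and 1 tested.

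Principal components were taken over 11834 autosomal genes with a mean log2 CPM of at least 2. The first 2 components of the untreated libraries held 26.8% and 19.2% of the variance. Their negative ends were led by skeletal muscle genes such as Ckm and Acta1. On the first component the carbon-arm controls ran from -28.0 to 19.2 and the photon-arm controls from -3.51 to 37.8. Carbon-arm replicate 5 and photon-arm replicates 2, 3 and 6 lay highest. The groups overlapped on the first component.

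**Figure D1:**
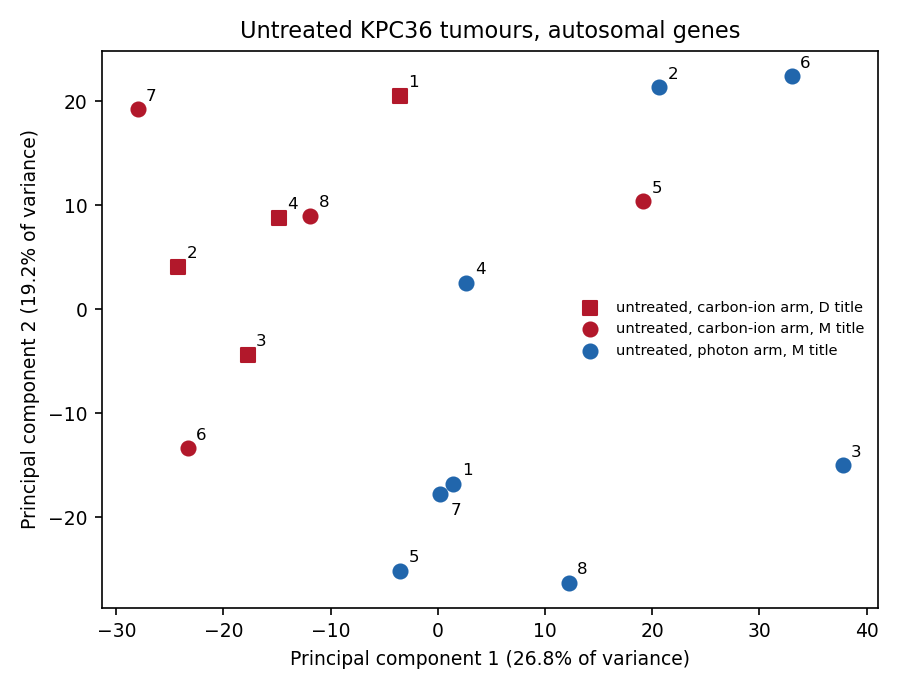
Principal component 1 against principal component 2 of the 16 untreated libraries (arbitrary units, with the share of variance in percent), numbered by replicate, with squares for D titles and circles for M titles. Most carbon-arm controls lie at negative values of component 1, from -28.0, while photon-arm replicates 2, 3 and 6 reach up to 37.8 and carbon-arm replicate 5 lies among the photon-arm controls.

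Of 19561 autosomal genes, 1624 differed between the untreated groups (8.30%) at an adjusted p under 0.05 by edgeR's quasi-likelihood test, 827 higher in the carbon-arm controls (4.23%) and 797 lower (4.07%). In 207 genes (1.06%) the groups did not overlap, 120 with every carbon-arm control above every photon-arm control (0.613%) and 87 below (0.445%). Differences were mostly small: the median absolute log2 fold change of the genes past the threshold was 0.51, against 0.19 over all genes, and 344 genes (1.76%) exceeded 2-fold, 223 of them higher (1.14%) and the rest lower (0.619%). The typical gene varied within a group by a standard deviation of 0.286 log2 CPM in the carbon-arm and 0.308 in the photon-arm controls. The count fell to 1026 without carbon-arm replicate 7 and to 1073 without photon-arm replicate 3. It was 383 when photon-arm replicates 2, 3 and 6 were left out together, with 345 of those among the 1624. With the pan-fibroblast score as a covariate, in a fit to the 16 untreated libraries alone, it was 240, with 200 among the 1624. A fit to these 16 libraries without the covariate gave 1921. All fold changes below are carbon-arm over photon-arm controls on the log2 scale.

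The following sequences show how differently the promoters of leading genes are built: Afp, whose window holds matches to a motif of the liver factor HNF1 and to TATAAA, Cbx7, rich in CG dinucleotides, and Il11, poor in them. Each is the 300 bases from 250 before to 50 after the RefSeq start on GRCm38.p6, 5′ to 3′ on the gene's strand, at chr5:90490464-90490763 (plus strand), chr15:79932597-79932896 (minus strand) and chr7:4782808-4783107 (minus strand). Capitals mark the motif matches in Afp and every CG in the others.
Afp: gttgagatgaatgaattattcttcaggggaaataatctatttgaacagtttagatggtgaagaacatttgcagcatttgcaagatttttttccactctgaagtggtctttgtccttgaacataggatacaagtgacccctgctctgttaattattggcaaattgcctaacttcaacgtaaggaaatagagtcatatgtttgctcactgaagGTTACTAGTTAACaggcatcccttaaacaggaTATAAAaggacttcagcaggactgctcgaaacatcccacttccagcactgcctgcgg
Cbx7: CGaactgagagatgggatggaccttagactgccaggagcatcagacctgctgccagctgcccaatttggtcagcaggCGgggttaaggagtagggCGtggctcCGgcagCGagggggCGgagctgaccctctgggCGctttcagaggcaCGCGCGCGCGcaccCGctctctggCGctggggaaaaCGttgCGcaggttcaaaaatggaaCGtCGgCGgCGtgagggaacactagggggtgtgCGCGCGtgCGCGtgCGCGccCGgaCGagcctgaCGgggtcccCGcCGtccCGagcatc
Il11: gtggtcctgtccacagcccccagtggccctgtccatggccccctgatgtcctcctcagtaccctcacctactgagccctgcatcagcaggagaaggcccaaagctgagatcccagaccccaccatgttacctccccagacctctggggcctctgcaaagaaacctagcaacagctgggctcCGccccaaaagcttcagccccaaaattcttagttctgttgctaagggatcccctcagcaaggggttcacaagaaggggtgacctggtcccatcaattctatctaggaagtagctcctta
The Afp window held 3 CG dinucleotides, that of Cbx7 33 and that of Il11 1. Of the genes over 2-fold higher in the carbon-arm controls, 102 had a window in the table, with a median of 4 CG, against 9.5 for the 84 over 2-fold lower and 19 for the 12455 tested autosomal genes with a window. The HNF1 motif, searched on both strands and shown as the first run of capitals in Afp, was in 3 of the 102 windows (Afm, Afp and Cyp2c68; 2.94%), in none of the 84 and in 11 of the 12455 (0.0883%). TATAAA was in 15.7%, 15.5% and 8.36% of the same sets. Over all genes past the threshold the CG and TATAAA values lay close to those of the tested genes: the 539 higher ones with a window had a median of 19 CG and TATAAA in 8.16%, and the 619 lower ones a median of 22 CG, TATAAA in 7.92% and 1 HNF1 match. The motifs and these genes were chosen after their values were seen, and a match is a description of letters.

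The gene with the smallest adjusted p was Cbx7, a chromodomain subunit of Polycomb repressive complex 1, which silences developmental genes. Cbx7 (chromosome 15, 79915807 to 79971119, mm10) ranged from 29.1 to 46.7 CPM (median 40.6) in the carbon-arm controls and from 12.9 to 25 CPM (median 16.6) in the photon-arm controls. The groups did not overlap; the lowest carbon-arm library was replicate 5 and the highest photon-arm library replicate 1. The log2 fold change was 1.24 (SE 0.13, adjusted p 1.46e-06). Cbx7 overlaps Apobec3, and the strand setting of the counting is not given in the sources used here. Among 30 genes of the Polycomb complexes, 2 were higher (Cbx7 and Cbx6, log2 fold change 0.43) and 2 lower (Pcgf2, -0.38, and Phc1, -0.36; calls kept in 11 and 5 of 16 fits without 1 library, adjusted p up to 0.0756 and 0.125), with a list median of -0.02 against -0.03 over all genes. The methyltransferase Ezh2 did not pass, at -0.08.

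Ccdc3, which encodes a secreted coiled-coil protein, was at 8.51 to 22.2 CPM (median 16.4) in the carbon-arm controls and 2.63 to 5.60 CPM (median 3.36) in the photon-arm controls. No library of one group reached the range of the other. Its log2 fold change was 2.03 (SE 0.27, adjusted p 5.69e-05). Afp, the fetal serum protein alpha-fetoprotein, had 15.6 to 33.4 CPM (median 19.6) against 5.27 to 9.74 CPM (median 6.31). These ranges also lay apart, with carbon-arm replicate 7 highest. The Afp log2 fold change was 1.58 (SE 0.22, adjusted p 0.000137).

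Among the 10 largest rises by the naming rule were Ugt2b34, Ugt2b35 and Sult1c2. Ugt2b34, a glucuronosyltransferase, had 66.5 to 164 CPM in the carbon-arm and 20.7 to 55.4 CPM in the photon-arm controls, without overlap. Its log2 fold change was 1.64 (SE 0.27, adjusted p 0.000466), and that of its paralogue Ugt2b35 2.05 (adjusted p 0.00200); reads shared between such copies make the split between them uncertain. Sult1c2, a sulfotransferase, rose by 1.59 (adjusted p 0.00458). The largest rise by the naming rule was that of Igfbp2, a binding protein of insulin-like growth factors, with 3.09 to 24.1 CPM (median 13.6) against 0.720 to 4.83 CPM (median 2.06) and a log2 fold change of 2.40 (SE 0.47, adjusted p 0.00204). Here the ranges overlapped through carbon-arm replicate 5.

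Other genes with the 10 smallest adjusted p were as follows. Orai2, a calcium channel subunit, had 51 to 64.1 CPM against 29 to 47.1 CPM (log2 fold change 0.60), and Slc16a10, a transporter of aromatic amino acids, had 32.1 to 42.8 CPM against 18.2 to 24.8 CPM (0.82); neither overlapped. Slc19a2, a thiamine transporter (0.60), Slc17a4, a transporter of organic anions (1.40), and Tox, an HMG-box factor best known in T cells (1.0), passed with overlapping groups. Each of the 10 genes with the smallest adjusted p passed in all 16 fits that left out 1 library and in all 11 other settings tried for single genes.

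Among the genes lower in the carbon-arm controls, Igf2bp1, an RNA-binding protein of fetal tissue and tumours, had 2.28 to 7.17 CPM (median 3.40) against 8.51 to 15.7 CPM (median 11.3). The groups did not overlap, and the log2 fold change was -1.42 (SE 0.22, adjusted p 0.000390). Rbms1, another RNA-binding protein, was at 162 to 213 CPM against 213 to 292 CPM (-0.48). Brinp3 had 3.87 to 11.5 CPM against 16.2 to 61.3 CPM (-1.59) and Moxd1, a relative of dopamine beta-hydroxylase, 12.1 to 40.7 CPM against 46.8 to 110 CPM (-1.33), both without overlap. Vangl2, of the planar cell polarity pathway, fell by 1.26 and Angpt4, an angiopoietin, by 1.29.

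The largest fall by the naming rule was that of Il11, a cytokine of the IL-6 family made by stromal and carcinoma cells. Il11 was at 14.3 CPM in carbon-arm replicate 1 and at 1.21 to 3.71 CPM in the other carbon-arm controls, with a median of 1.92 CPM, against 6.52 to 45.6 CPM (median 14.9) in the photon-arm controls. Replicate 1 was the only carbon-arm control inside the photon-arm range. The log2 fold change was -2.47 (SE 0.49, adjusted p 0.00198). It was -3.30 without carbon-arm replicate 1, and -1.89 with the D-titled carbon-arm controls alone, which did not pass (adjusted p 0.0702). A2m (-1.86), a protease inhibitor, and Cfi (-1.28), complement factor I, passed in all 16 libraries but not without photon-arm replicate 2 (adjusted p 0.106 and 0.0729) or carbon-arm replicate 7 (0.0537 and 0.0518); A2m also lost its call without carbon-arm replicate 6 (0.0551) or 8 (0.0503).

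**Figure D2:**
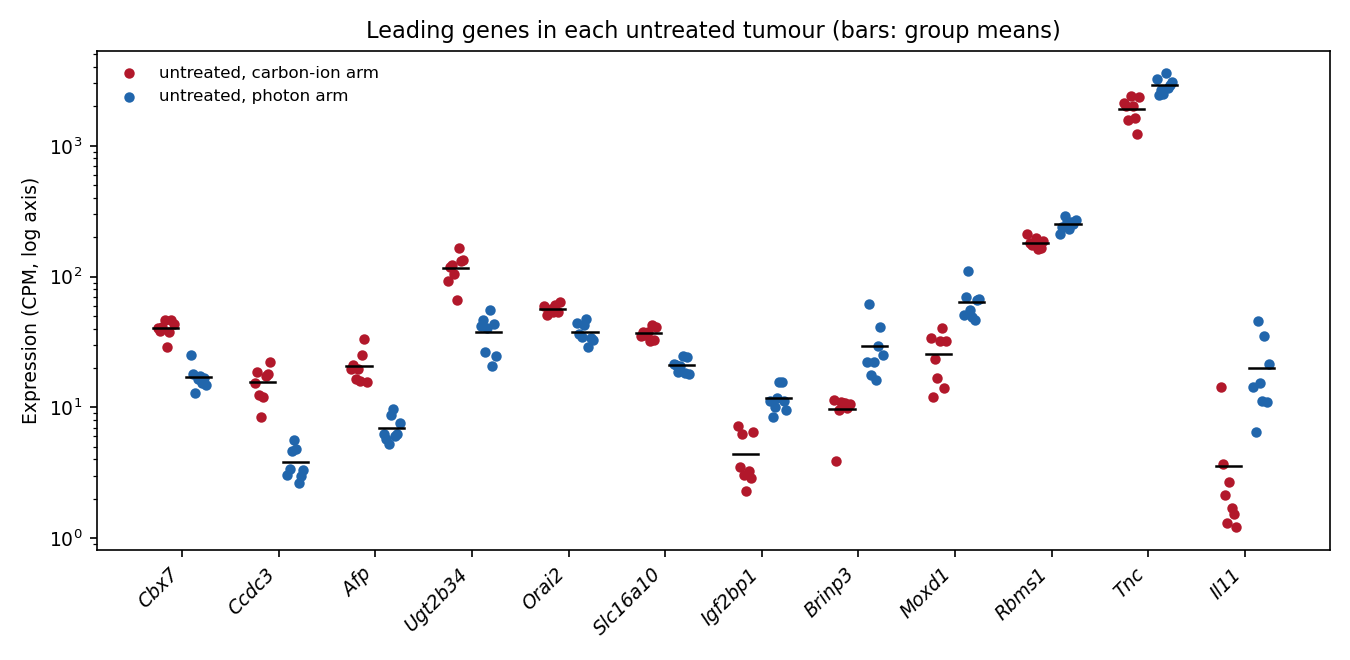
Expression in CPM (log axis) of 12 genes in each of the 16 untreated libraries, with group means as bars. In Cbx7, Ccdc3, Afp, Ugt2b34, Orai2 and Slc16a10 all 8 carbon-arm controls lie above all 8 photon-arm controls, in Igf2bp1, Brinp3, Moxd1, Rbms1 and Tnc all 8 lie below, and for Il11 carbon-arm replicate 1 lies among the photon-arm controls.

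Lists of genes for tumour cell state, stroma and immune cells held 893 tested autosomal genes, of which 37 were higher and 36 lower (8.17%), close to the 8.30% over all genes. Of the 73, the calls of 35 held in all 16 fits without 1 library. Members of a list are described by counts and medians, beside the median of -0.03 over all genes.

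In the tumour cell state, epithelial genes leaned to the carbon-arm controls. Of 24 epithelial junction and keratin genes, 6 rose and 0 fell (25%, against 8.30% over all genes either way), 22 had a positive fold change, and the median was 0.38. The risers were the claudins Cldn3, Cldn4 and Cldn7, which seal tight junctions, the epithelial transcription factor Grhl2, the recycling GTPase Rab25 and the adhesion protein Cdh1. Cdh1 was at 652 to 944 CPM (median 851) against 496 to 749 CPM (median 624), with overlap, a log2 fold change of 0.41 and an adjusted p of 0.0404. Grhl2 had 0.664 to 3.49 CPM against 0.318 to 1.17 CPM (log2 fold change 1.40, adjusted p 0.00486). The Cdh1 call was lost in 13 of the 16 fits without 1 library, with adjusted p up to 0.106, and that of Cldn3 without carbon-arm replicate 5 (0.116, with the log2 fold change moving from 2.39 to 1.45), of Cldn4 without carbon-arm replicate 4 (0.0533) and of Rab25 without photon-arm replicate 3 (0.0509) or carbon-arm replicate 8 (0.0549). Epcam (0.12) and Krt19 (0.44), other epithelial markers, did not pass.

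Of 22 gastric-type genes, which mark the classical subtype of pancreatic cancer, 3 rose and 1 fell (18.2% past the threshold, median 0.25). Tff1, a mucosal trefoil peptide, was at 2.73 to 36.1 CPM (median 15) against 1.22 to 13.4 CPM (median 2.89), a log2 fold change of 1.87, and Ctse, cathepsin E, and Cldn18, the stomach claudin, rose by 0.63 and 1.14. Muc6, a gastric gland mucin, fell by 1.94, with photon-arm libraries at up to 251 CPM, and by 1.11 without photon-arm replicate 2 (adjusted p 0.218). Of the fits without 1 library Muc6 passed in 8 of 16, Ctse in 11 and Cldn18 in 6 (adjusted p up to 0.0695 and 0.0807). Of 12 basal and squamous genes, 2 rose (Pkp1, 1.0, and Sprr1a, 0.83) and 0 fell (16.7%), with a median of 0.32. Of the 13 tested driver and lineage genes 30.8% passed. The pancreatic factor Pdx1 (0.52) and Brca2 (0.50) rose and Sox9 (-0.41) and Arid1a (-0.24) fell, while Trp53 (-0.36) did not pass. Sox9 kept its call in 6 and Arid1a in 12 of the 16 fits without 1 library (adjusted p up to 0.122 and 0.0972).

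Among 14 genes of the epithelial-mesenchymal transition, 12 had a negative fold change (median -0.38) and 28.6% passed, against 8.30% over all genes. Snai1 (-0.83) and Snai2 (-0.44), repressors of epithelial genes, and the neural cadherin Cdh2 (-0.65) fell. Snai1 kept its call in 5 and Snai2 in 4 of the 16 fits without 1 library (adjusted p up to 0.133 and 0.129), and Snai2 was at an adjusted p of 0.0506 with DESeq2's size factors. S100a4, a calcium-binding protein of motile cells and fibroblasts, rose instead: it was at 44.4 to 113 CPM (median 69.9) in the carbon-arm and 9.97 to 41.4 CPM (median 30.8) in the photon-arm controls. The groups lay apart, and the log2 fold change was 1.39 (SE 0.32, adjusted p 0.00673); without photon-arm replicates 2, 3 and 6 the adjusted p was 0.0661. Vim (-0.09) and Zeb1 (-0.03) did not pass.

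Proliferation and signalling lists held few calls. None of 24 mitosis and 26 DNA replication genes passed, although 23 of the 24 mitosis genes had a negative fold change (median -0.25); in the photon-arm controls the mitosis score, the mean log2 CPM of the list, ranged from 4.37 in replicate 2 to 6.10 in replicate 5. Of 21 genes of ERK pathway output, the feedback inhibitors Spry2 (-0.52) and Spred1 (-0.35) fell. Of 27 p53 targets, 24 were positive (median 0.12) and Perp, of desmosomes and cell death, rose by 0.70. Of 70 oxidative phosphorylation genes 63 were positive (median 0.18) and 5 rose, a share of 7.14% near the 8.30% over all genes. Ndufa6 (0.43) passed in all 16 fits without 1 library, Cox4i1 (0.44) in 15, Ndufb9 (0.41) and Cox6c (0.52) in 4 each and Ndufs7 (0.31) in 0 (adjusted p up to 0.134 over these genes). Of 29 lysosome genes 4 rose and 0 fell (median 0.10), with Atp6v1h, a proton pump subunit, at 32.7 to 44.4 CPM against 25.4 to 29.2 CPM without overlap. Among 24 oncofetal and imprinted genes, Igf2r (0.50), a receptor that removes IGF2, and Impact (0.36) rose besides Afp, and Dio3, which inactivates thyroid hormone, fell by 1.74 besides Igf2bp1.

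All 23 tested pan-fibroblast genes had a negative fold change (median -0.47), and 7 fell (30.4%, against 8.30% over all genes either way): Fn1, Col1a2, Col5a1, Col5a2, Col6a2, Col6a3 and Pdgfra. Fn1, fibronectin, was at 1642 to 3604 CPM (median 2628) against 3496 to 6491 CPM (median 4048), a log2 fold change of -0.72 (SE 0.18, adjusted p 0.0133). The groups met only at their ends. Carbon-arm replicate 7 had the lowest pan-fibroblast score, 7.39, and photon-arm replicate 3 the highest, 9.16. Fn1 and Col6a3 (-0.66) passed in all 16 fits without 1 library, and the other 5 each lost the call in at least 1, with adjusted p up to 0.0621 to 0.123. The call of Fn1 was lost without photon-arm replicates 2, 3 and 6 (adjusted p 0.193).

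The other stromal lists had shares past the threshold near or below that 8.30%, from 0% of 13 pericyte and smooth muscle genes and of 8 lymphatic endothelial genes to 10% of myofibroblastic genes. Of 20 myofibroblastic genes 18 were negative (median -0.36) and 2 fell. Tnc, the matrix glycoprotein tenascin C, was at 1222 to 2383 CPM against 2451 to 3571 CPM and did not overlap (-0.60, adjusted p 0.0132), and Inhba, of activin A, fell by 0.69 (6 of 16 fits without 1 library, adjusted p up to 0.0844). Of 24 inflammatory and universal fibroblast genes, Ly6a rose by 0.53 (7 of 16 such fits, up to 0.0976). The list median was -0.52, but it was 0.42 with the pan-fibroblast score as a covariate. It also varied with the title letter, at -0.09 for the M-titled and -0.81 for the D-titled carbon-arm controls against the photon-arm controls. Lamb1, a laminin chain, fell by 0.49 among 17 basement membrane genes. All 22 blood vessel endothelial genes were negative (median -0.42; 9.09% past the threshold), and Esam (-0.50) and Emcn (-0.49), proteins of endothelial junctions and surface, fell, with calls kept in 11 and 14 of the 16 fits (adjusted p up to 0.0895 and 0.0608). Pecam1 (-0.46) and Cdh5 (-0.59) did not pass.

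The 10 genes with the largest within-group standard deviation by the naming rule were all expressed in skeletal muscle, and the groups overlapped in each. They included Myh4, Ckm, Acta1, Atp2a1, Xirp2, Eef1a2, Actn3, Myh1 and Ryr1. Ckm, muscle creatine kinase, ran from 0.0251 to 370 CPM (median 32.2) in the carbon-arm and from 0.555 to 208 CPM (median 96.3) in the photon-arm controls. The muscle score was lowest in carbon-arm replicate 5 (-1.66) and photon-arm replicate 6 (-1.03) and highest in carbon-arm replicate 6 (5.70). Of 24 muscle genes 0 passed (median 0.03). Of 12 adipocyte genes 11 were positive (median 0.81) and 0 passed. The direction turned with the title letter, with a median of 1.27 for the M-titled and -0.37 for the D-titled carbon-arm controls, and the mean score was 1.38 ± 1.65 against 1.21 ± 1.15 (SD, n = 8 each). Carbon-arm replicate 5 had the highest score, 4.69. The part of muscle and fat in the other differences was not tested.

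Immune lists held few genes past the threshold. None of 22 T cell genes passed (median -0.45), and Cd3e, a chain of the T cell receptor complex, was at 0.113 to 2.15 CPM against 0.633 to 1.95 CPM. None of 26 macrophage and monocyte genes (median 0.04), 17 alternative macrophage genes, 14 neutrophil genes, 18 MHC class I genes, 10 MHC class II genes or 33 interferon-stimulated genes passed. Klrc1, an NK receptor, rose by 1.36 and Il2ra, a chain of the IL-2 receptor, fell by 1.16, both with calls lost without single libraries (adjusted p up to 0.0983 and 0.110); without photon-arm replicate 4 the Klrc1 value was 1.96. Of 13 mast cell and eosinophil genes all were negative (median -0.72). Il5ra, the IL-5 receptor of eosinophils, was at 0.652 to 4.93 CPM (median 1.52) against 2.25 to 16.8 CPM (median 11.3); photon-arm replicate 2 was low and carbon-arm replicate 4 high. It fell by 2.50 (SE 0.51, adjusted p 0.00241). Of 31 chemokines and cytokines, Il11 and Il33 fell and Il1a rose (0.88, with the call kept in 7 of 16 fits without 1 library, adjusted p up to 0.118). Il33, an alarmin of epithelium and stroma, was at 65.3 to 157 CPM (median 107) against 147 to 284 CPM (median 201), a log2 fold change of -0.88 (adjusted p 0.00114).

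**Figure D3:**
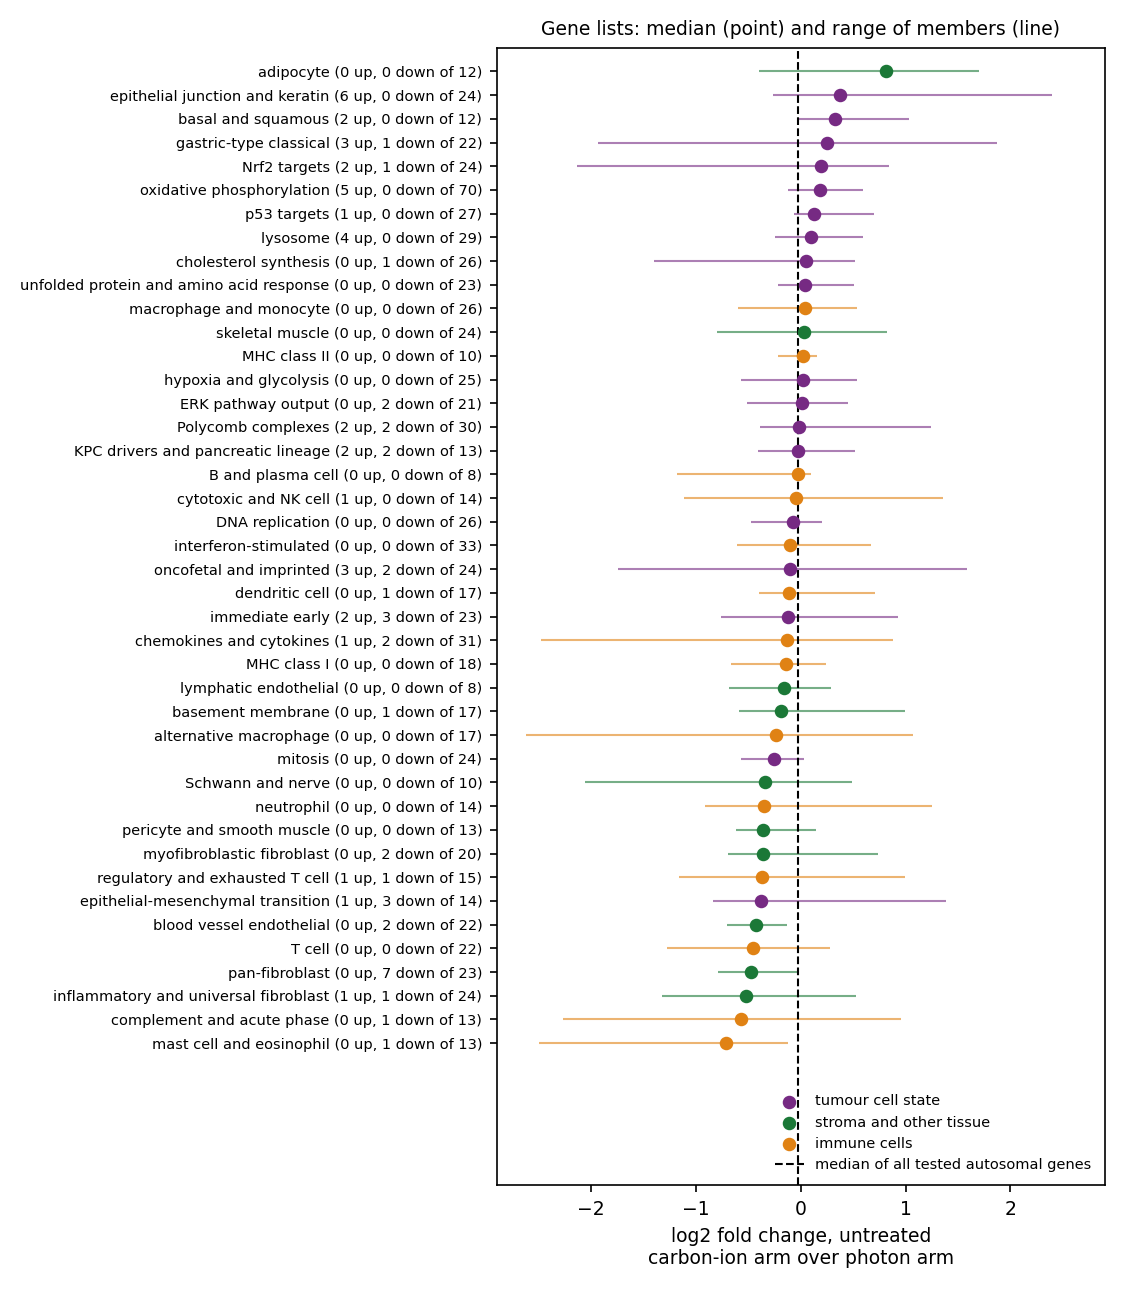
Median (point) and range (line) of log2 fold change, carbon-arm over photon-arm controls, for each list with at least 8 tested genes, with the number of genes past the threshold in brackets, coloured by area, and the median of all genes as a dashed line. Pan-fibroblast and blood vessel endothelial lists lie wholly below 0, with medians of -0.47 and -0.42, and the epithelial junction and keratin list has a median of 0.38.

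Gene expression also differed by chromosome. For each library the median level of each autosome's genes was taken relative to all autosomes. On chromosome 5 every carbon-arm control lay above every photon-arm control, at 0.02 to 0.13 against -0.11 to -0.02 log2, with 165 genes higher and 12 lower of 1453 (12.2% past the threshold, against 8.30% over all genes) and a median log2 fold change of 0.13. All 8 windows of 20 Mb had a positive median, from 0.06 to 0.16. On chromosome 2 the carbon-arm controls lay below, at -0.09 to -0.03 against 0.01 to 0.11, with 30 higher and 104 lower of 1474 and all 10 windows negative; the 9.09% past the threshold was close to the 8.30% over all genes, while 7.06% were lower, against 4.07%.

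Chromosomes 9 and 12 were also lower without overlap, with medians of -0.16 each. On chromosome 9, 30 genes were higher and 120 lower of 1171 (12.8%), and 6 of 7 windows were negative while the last, from 120 Mb, was at 0.11. Chromosomes 8 (median 0.09) and 10 (median 0.06) were higher without overlap. Chromosome 14 had the autosomal median farthest from 0, -0.22, with 3 genes higher and 93 lower of 688 (14%), but the groups overlapped, at -0.22 to 0.06 against 0.03 to 0.18; carbon-arm libraries spread from -0.22 up into the photon-arm range. Carbon-arm D and M libraries had medians for chromosome 14 against the photon-arm controls of -0.20 and -0.24, and for chromosome 5 of 0.13 each. With the pan-fibroblast score as a covariate the medians were 0.14 for chromosome 5, -0.06 for chromosome 2 and -0.15 for chromosome 14. The part of the other cell types in these shifts was not tested further.

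**Figure D4:**
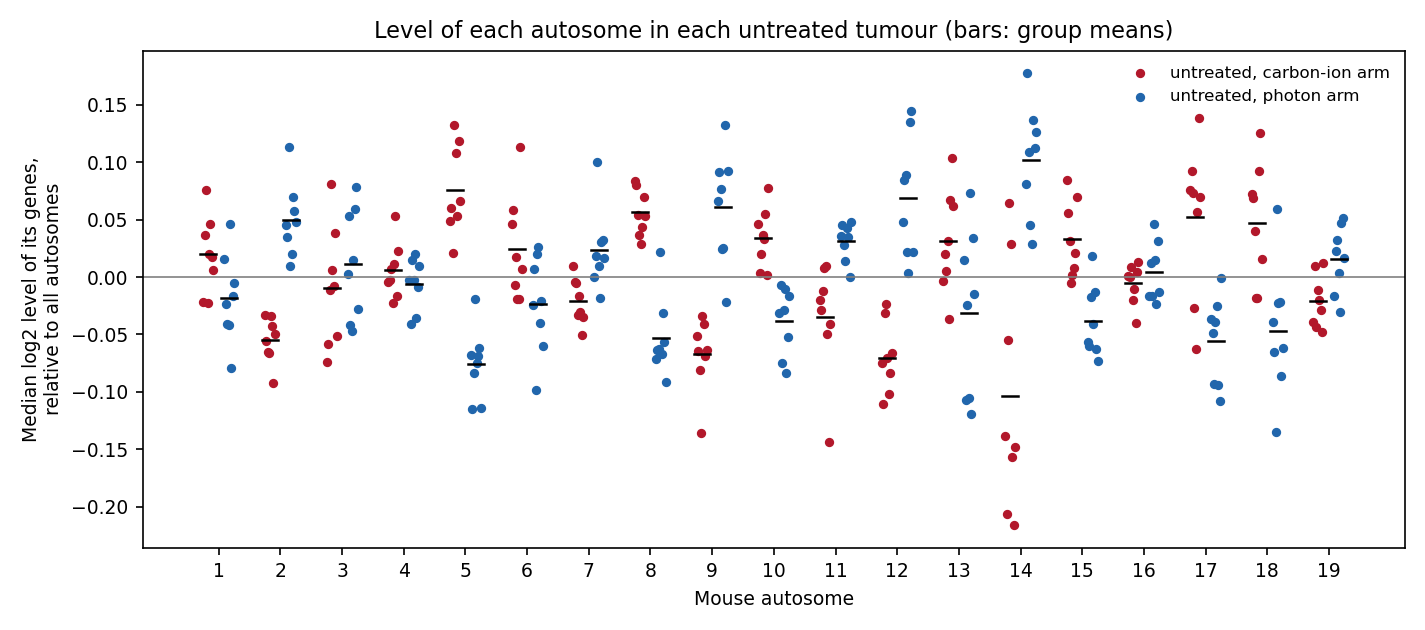
Median log2 level of the genes of each autosome relative to all autosomes (vertical axis) in each untreated library, by autosome (horizontal axis), with group means as bars. On chromosome 5 the carbon-arm controls lie at 0.02 to 0.13 and the photon-arm controls at -0.11 to -0.02, and on chromosome 14 the carbon-arm controls spread from -0.22 to 0.06.

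Small structural RNAs, such as snoRNAs and Y RNAs, made up 73 of the 827 genes higher in the carbon-arm controls. Of those tested, 73 were higher and 0 lower (58.9%), against 9.80% of protein-coding genes, and the median log2 fold change was 1.94. Their mean log2 CPM ran from 0.59 to 3.70 (median 2.38) in the carbon-arm and from 0.04 to 1.96 (median 0.42) in the photon-arm controls, so the groups overlapped. Snora73a, a snoRNA, was at 12.6 to 106 CPM (median 33.9) against 6.28 to 19.5 CPM (median 8.91), a log2 fold change of 2.02 (adjusted p 0.00409); it lies in the Snhg3 and Rcc1 genes. With the D-titled carbon-arm controls alone its value was 1.38 and the call was lost (adjusted p 0.123), as it was with the pan-fibroblast score as a covariate (0.0566) and without photon-arm replicates 2, 3 and 6 (0.0502). Rny1, a Y RNA, passed at 1.98 (adjusted p 0.0408) with photon-arm replicate 1 at 0, and lost the call in 8 of 16 fits without 1 library. They took 4.2% to 13.6% of counts in the carbon-arm and 3.70% to 6.16% in the photon-arm controls, and carbon-arm replicate 7 had the highest share. Most of this share came from Rn7s1, Rn7s2, Rn7sk and Rpph1, which did not pass, so it does not describe the RNAs called higher. The carbon-arm libraries with M titles had a median of 2.31 and those with D titles 1.3 against the photon-arm controls. Without these RNAs 1551 genes passed, 754 higher and 797 lower.

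**Figure D5:**
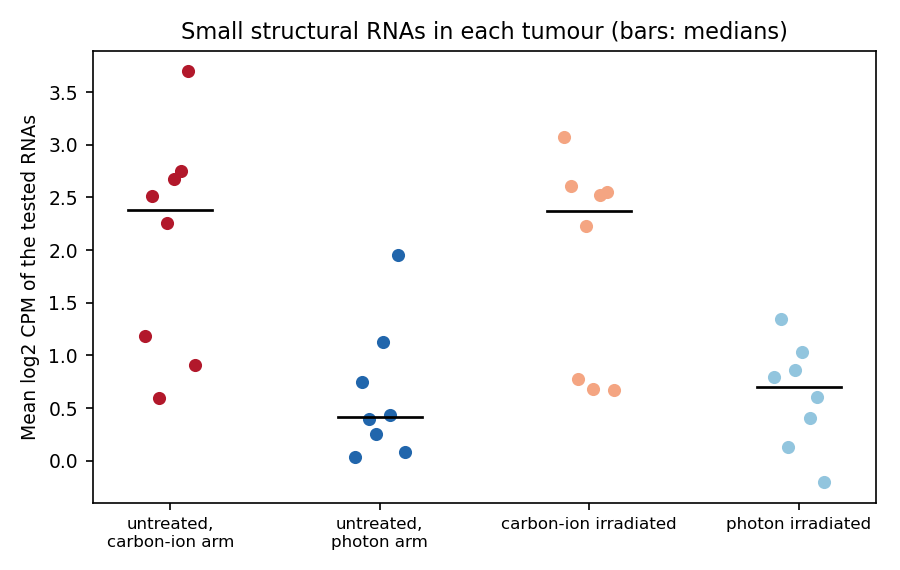
Mean log2 CPM of the tested small structural RNAs in each library by group, with medians as bars. The carbon-arm controls range from 0.59 to 3.70 and the photon-arm controls from 0.04 to 1.96, with overlap between them.

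The irradiated groups share no library with the untreated ones, but they differ in beam as well as in arm. Beam and arm cannot be told apart in the values below, which therefore do not repeat the arm comparison alone. Between the irradiated groups 960 genes passed (4.91%), 654 higher with carbon ions (3.34%) and 306 lower (1.56%). Under upper-quartile scaling the split was 459 and 525. The count was 289 without the filter on low counts and 1889 with DESeq2, so the shares of the 960 hold for this fit alone. Of the 1624 genes, 1346 had the same sign between the irradiated groups (82.9%, against 61.9% over all genes), 187 passed there in the same direction (11.5% of the 1624 and 19.5% of the 960) and 5 in the opposite one. The median irradiated log2 fold change was 0.25 for the genes higher in the carbon-arm controls, whose untreated median was 0.56, and -0.16 for those lower, whose untreated median was -0.46. Small structural RNAs were higher here too (median 1.56, 41 higher and 0 lower). List medians differed from those of the untreated tumours: pan-fibroblast genes were at 0.00 between the irradiated groups (untreated -0.47), blood vessel endothelial genes at -0.02 (-0.42), genes of the epithelial-mesenchymal transition at 0.06 (-0.38) and epithelial junction and keratin genes at 0.25 (0.38). Skeletal muscle genes were at 2.79 (0.03). These differences between medians were not tested. Relative to all autosomes, the irradiated groups overlapped on each of the 6 chromosomes on which the untreated groups had lain apart. Carbon ions against photons, the levels were -0.08 to -0.01 against -0.06 to 0.00 on chromosome 2, 0.02 to 0.10 against 0.06 to 0.15 on chromosome 5, -0.02 to 0.07 against 0.00 to 0.04 on chromosome 8, -0.15 to -0.04 against -0.07 to -0.02 on chromosome 9, 0.01 to 0.10 against -0.06 to 0.07 on chromosome 10 and -0.10 to 0.06 against -0.05 to 0.03 on chromosome 12.

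Named genes differed in whether the untreated difference was also seen between the irradiated groups, where beam and arm cannot be told apart. Afp had a log2 fold change of 0.79 between the irradiated groups (adjusted p 0.0338) and Igf2bp1 -1.0 (adjusted p 0.019), both past the threshold. Cbx7 was at 0.07 (adjusted p 0.748), Il11 at 0.14, Il33 at 0.15 and Il5ra at 0.75, none past it. The difference between the untreated and the irradiated arm difference was tested as an interaction and passed in 12 genes (0.0613%). For Cbx7 it was 1.17 (adjusted p 0.00664). Others included Cyp24a1, which breaks down vitamin D (1.31 untreated, -1.09 irradiated, adjusted p 0.0384), and Tnip3, an inhibitor of NF-kappaB signalling (-0.61 untreated, 0.68 irradiated, adjusted p 0.0320).

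Within the carbon-arm controls, the 4 D-titled and 4 M-titled libraries were compared with each other. In edgeR's quasi-likelihood test 0 genes passed, and 520 reached an unadjusted p below 0.05. By chance a share of 0.05 of the 19561 tested genes would reach it, which is more than 520. Against the photon-arm controls, in a fit with 6 levels, 697 genes passed for the M-titled libraries (3.56%) and 267 for the D-titled (1.36%).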

How the data were processed

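RNA came from tumour tissue kept in RNAlater, with an RNA integrity number above 7.0, and was made into stranded mRNA libraries, per the labels' protocols. The authors deposited estimated counts per gene for each library, made from the reads and named raw counts; FastQC 0.12.0, Trimmomatic 0.32 and RSEM 1.3.3 and the build mm10 are named in the submitters' processing notes. The aligner, the annotation, the strand setting and any rescaling are not given in the sources used here. The test design assumed whole-number counts; values were rounded, which changed totals by at most 0.00403%. Gene positions came from GENCODE (49125 of 55103 symbols matched) and the RefSeq table of GRCm38.p6 (1248 more).

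In R 4.3.3 with edgeR 4.0.16, genes passed filterByExpr with a minimum count of 10, leaving 20474, of which 19561 are autosomal. Libraries were scaled by TMM, and 1 quasi-likelihood model with 4 groups was fitted to all 32 libraries. The Benjamini-Hochberg adjustment ran over all 20474 genes, with a threshold of 0.05. Standard errors came from the quasi-likelihood F statistic. CPM is relative to the TMM-scaled total, and log2 CPM has a prior count of 2. Scores are means of log2 CPM over a list. The script was tested on simulated data.

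By the naming rule, genes with a mean log2 CPM of at least 2 are named as the 10 smallest adjusted p, the 10 highest and 10 lowest log2 fold changes past the threshold with every library on its own side of the other group's median, the 10 most variable, and members of the lists; genes named with a clone or predicted name were left out. The members and lists were chosen with earlier results of these data known. Alternatives were other scalings, no filter on low counts, DESeq2 1.42.0, the 16 untreated libraries alone, D- or M-titled libraries alone, a minimum change of 1.2-fold, each library left out, protein-coding genes alone, the pan-fibroblast score as a covariate and photon-arm replicates 2, 3 and 6 left out; the last 3 were chosen after seeing the data. The covariate fit used the 16 untreated libraries alone. Replicate numbers follow the order of deposition. Some genes that meet this naming rule are not reported here.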

Additional observations from a re-analysis of the deposited data

Results flagged for a closer look

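In 188 checks of single groups of 8 libraries, 18 had a library far from the others; chance flags about 1 in 20 such groups. On the log2(CPM + 0.1) scale, Cbx7 was lowest in carbon-arm replicate 5 (4.87), Slc17a4 lowest in carbon-arm replicate 5 (2.18), Brinp3 lowest in carbon-arm replicate 2 (1.99) and Il11 highest in carbon-arm replicate 1 (3.85). In the photon-arm controls Slc19a2 was highest in replicate 2 (4.92), Moxd1 highest in replicate 3 (6.79) and Rny1 lowest in replicate 1 (-3.32), where its count was 0.

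The relative level of chromosome 7 was highest in photon-arm replicate 3 (0.0999), that of chromosome 9 lowest in carbon-arm replicate 4 (-0.136) and that of chromosome 11 lowest in carbon-arm replicate 7 (-0.144). Among list scores, photon-arm replicate 4 was highest for basal and squamous genes (3.09) and photon-arm replicate 3 for blood vessel endothelial genes (5.47). Photon-arm replicate 2 was lowest for ERK pathway output (5.50) and for cholesterol synthesis (5.09) and highest for the single tested acinar and islet gene, Cela1 (4.38). Carbon-arm replicate 7 was lowest for myofibroblastic genes (6.39) and carbon-arm replicate 1 for dendritic cell genes (2.01). The share of small structural RNAs was highest in carbon-arm replicate 7 (13.6%).

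The difference between the arms was not the same in untreated and irradiated tumours in 12 autosomal genes by the interaction term. That term holds the beam as well as the arm.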

How the results depend on the processing

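The count of 1624 genes was 1607 with DESeq2's size factors, 1896 with upper-quartile scaling, 1169 without the filter on low counts, 1921 with the 16 untreated libraries alone, 2104 with DESeq2 and 1831 with protein-coding genes alone. It was 848 with M-titled libraries alone, 267 with D-titled carbon-arm controls alone and 239 against a minimum change of 1.2-fold. With the pan-fibroblast score as a covariate in the 16 untreated libraries it was 240. It was 383 without photon-arm replicates 2, 3 and 6. Without 1 library it ranged from 1026 (without carbon-arm replicate 7) to 1921 (without carbon-arm replicate 5). The count of 960 between the irradiated groups was 289 without the filter and 1889 with DESeq2. For D against M titles the count of 0 ranged from 0 to 1 without 1 library. Of 94 named genes past the threshold, 53 passed in all fits without 1 library, and no fold change of these genes changed sign in the alternatives run. The median over all genes moved from -0.03 to -0.02 with DESeq2's size factors and to -0.04 with upper-quartile scaling. No paired analysis was possible because the replicate numbers come from accession order and link no library of one group to one of another. Genes under about 1 CPM rest on few counts, and differences there were not always detectable at this depth.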

Other observations

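Chromosome X, which was outside the autosomal comparison, had 203 genes higher and 12 lower in the carbon-arm controls of 564 tested (38.1%), with a median log2 fold change of 0.35 and no overlap between the groups. Relative to all autosomes its level was 0.03 to 0.28 in the irradiated tumours of the carbon-ion arm and -0.10 to 0.09 in those of the photon arm, with overlap.

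Nrf2 targets, which protect cells from oxidants, had 20 of 24 positive fold changes (median 0.20); the carbonyl reductase Cbr3 (0.69) and the glutathione transferase Gstm1 (0.69) rose, with calls kept in 10 and 8 of 16 fits without 1 library (adjusted p up to 0.0756 and 0.0716). Gsta2, another glutathione transferase near the limit of detection, fell by 2.14, by 3.17 without carbon-arm replicate 1, and was at -1.47 with the D-titled carbon-arm controls alone (adjusted p 0.237). Among immediate early genes, the heat shock gene Hspa1b was at 38.6 to 62.3 CPM in the carbon-arm and 18.8 to 30.4 CPM in the photon-arm controls, without overlap (log2 fold change 0.93, adjusted p 0.00234); Klf4 rose by 0.47 and Egr3 (-0.70), Zfp36 (-0.56) and Nr4a2 (-0.38) fell, with calls kept in 10, 14 and 7 of 16 fits without 1 library (adjusted p up to 0.0929, 0.0688 and 0.111). Mitochondrially encoded RNA took 1.05% to 3.46% of counts in the carbon-arm and 0.965% to 1.58% in the photon-arm controls.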
